A study of Mus musculus with 7 samples.

Results

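Genes of glutathione metabolism and of the enzymes that remove superoxide and peroxides were followed in kidney RNA of MRL/lpr mice, which lack working Fas, the death receptor of lymphocytes, and become ill with lupus and nephritis. The members were chosen by symbol: the protein-coding genes of the glutathione transferase (Gst, Mgst), glutathione peroxidase (Gpx) and peroxiredoxin (Prdx) families, together with 12 single genes of glutathione synthesis, superoxide dismutation, catalase, quinone reduction and their regulator Nfe2l2. They were 52 of the 53465 genes in the deposited table, and 44 of them passed the filter on low counts. 4 mice had received AZD1152 (barasertib), a prodrug of an inhibitor of Aurora kinase B, and 3 had received vehicle. All 7 mice were MRL/lpr, so no healthy strain was compared, and their age and sex and the dose and schedule are not in the labels. Each mouse gave 1 poly(A)-selected library of renal tissue, with 14692113 to 17036862 counts in AZD1152 kidneys and 16195173 to 16930859 counts in vehicle kidneys. Levels are given as CPM, counts scaled to a common library size, after the TMM correction for library composition, and replicates are named in the order of their labels.

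Glutathione is a tripeptide made by glutamate-cysteine ligase (catalytic subunit Gclc, modifier subunit Gclm) and glutathione synthetase (Gss), kept reduced by glutathione reductase (Gsr) and split outside the cell by gamma-glutamyl transferase (Ggt1), an enzyme of the proximal tubule brush border. Glutathione transferases join it to electrophiles, and glutathione peroxidases use it to reduce hydroperoxides. Superoxide dismutases turn superoxide into hydrogen peroxide, which catalase and the peroxiredoxins remove. NRF2, encoded by Nfe2l2, switches on many of these genes through antioxidant response elements and is controlled mostly by degradation of its protein through KEAP1. Kidney makes most of the glutathione peroxidase of blood plasma (Gpx3), in the proximal tubule.

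Gpx3 was by far the most abundant of these transcripts and one of the most abundant of the whole kidney. It held 3.39% to 4.19% of all counts in AZD1152 kidneys, against 2.39% to 3.37% in vehicle kidneys, and ranked 3 among all genes in CPM per kilobase of exon. All 52 members together held 4.33% to 5.14% of the counts with AZD1152 and 3.23% to 4.27% with vehicle. Most of this was Gpx3 in both groups, so the sum largely repeats the Gpx3 values. Per exon length Gpx3 stood at 22309.5 ± 2539 CPM per kb in AZD1152 kidneys (SD, n = 4) and 15156 ± 3087 CPM per kb in vehicle kidneys (SD, n = 3). The next in level was Gpx1, the glutathione peroxidase of the cytosol, at 899.8 ± 62.5 CPM per kb with AZD1152 and 761 ± 73.6 with vehicle. Prdx5 followed at 406 ± 14.8 CPM per kb with AZD1152 and 369 ± 17.8 with vehicle, and Cat at 403 ± 48.3 with AZD1152 and 270.1 ± 45.1 with vehicle. Gpx3 and Gpx1 were separated by far more than their spread, whereas Prdx5 and Cat overlapped with each other in AZD1152 kidneys. In all, 12 members had a mean of at least 100 CPM per kb over the 7 kidneys. The lowest of the tested members were Gsto2, Gsta1, Gpx7 and Gstm6, all under 3 CPM per kb in both groups.

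**Figure D1:**
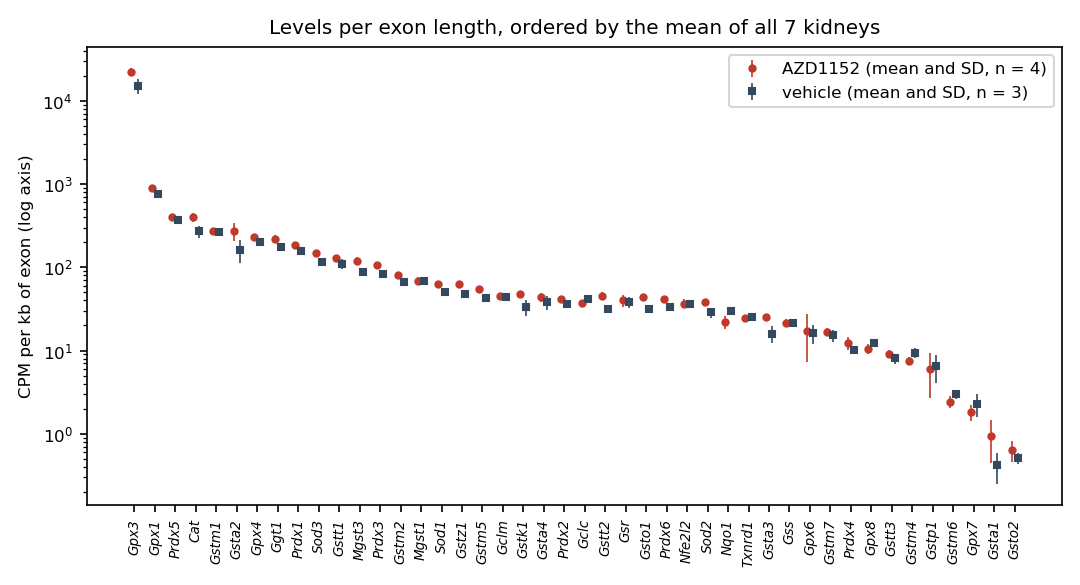
Level of each of the 44 tested members in CPM per kb of exon on a log axis, ordered by the mean over all 7 kidneys; points are group means and bars are SD, with AZD1152 (n = 4) left of vehicle (n = 3). Gpx3 stands at 22309.5 ± 2539 CPM per kb with AZD1152 and 15156 ± 3087 with vehicle, and Gpx1 comes next at 899.8 ± 62.5 with AZD1152 and 761 ± 73.6 with vehicle.

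The remaining 8 members were too low to test: Gstm3, Gstp2, Gstp3, Gstt4, Mgst2, Gpx2, Gpx5 and Prdx6b. None of them had more than 19 counts in any library, and Gpx5 had 0 in all 7, where a limit of 3 counts leaves room for as much as 0.212 CPM at the lowest depth. That limit covers counting error only.

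With AZD1152, 12 of the 44 tested members rose and 0 fell in edgeR (quasi-likelihood test over 15774 genes, adjusted after Benjamini and Hochberg, threshold 0.05). The 12 were Sod1, Sod2, Sod3, Cat, Gsta3, Gsto1, Gstt2, Gstz1, Gstk1, Mgst3, Prdx3 and Prdx6. With 1 kidney left out the count that rose was 1 to 9: 1 without AZD1152 replicate 4, 2 without vehicle replicate 1 or 3, 4 without AZD1152 replicate 3, 5 without AZD1152 replicate 2, 7 without AZD1152 replicate 1 and 9 without vehicle replicate 2. Over all genes, the same fits in the same order called 107, 126, 60, 249, 229, 311 and 475 higher, beside 476 with all 7 kidneys. With all 7 kidneys the 12 made 27.3% of the tested members, beside 3.02% of all tested genes called higher and 4.81% called lower. Where the mean reached 10 CPM or more, 12 of 39 members rose (30.8%), beside 4.53% of all such genes higher and 4.59% lower. The rises were small, with log2 fold changes of 0.32 to 0.69, which is 1.25-fold to 1.62-fold. Over the tested members the median log2 fold change was 0.23, with 36 estimates above 0 and 8 below, against a median of -0.00061 over all tested genes and 0.037 over those of at least 10 CPM. At an unadjusted p under 0.05, 21 members were higher and 2 lower. The share of all genes under that threshold was not counted, so these counts have no background. DESeq2 called 17 higher, the 12 above with Ggt1, Gpx3, Gsta2, Gstm2 and Gstm5, and 1 lower, Nqo1 (background 6.14% and 7.33% of its 15533 genes). The groups did not overlap, with every AZD1152 kidney above every vehicle kidney, for 22 members including all 12 called ones (background 11.2% of tested genes), and with every AZD1152 kidney below for 2 (background 11.6%).

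**Figure D2:**
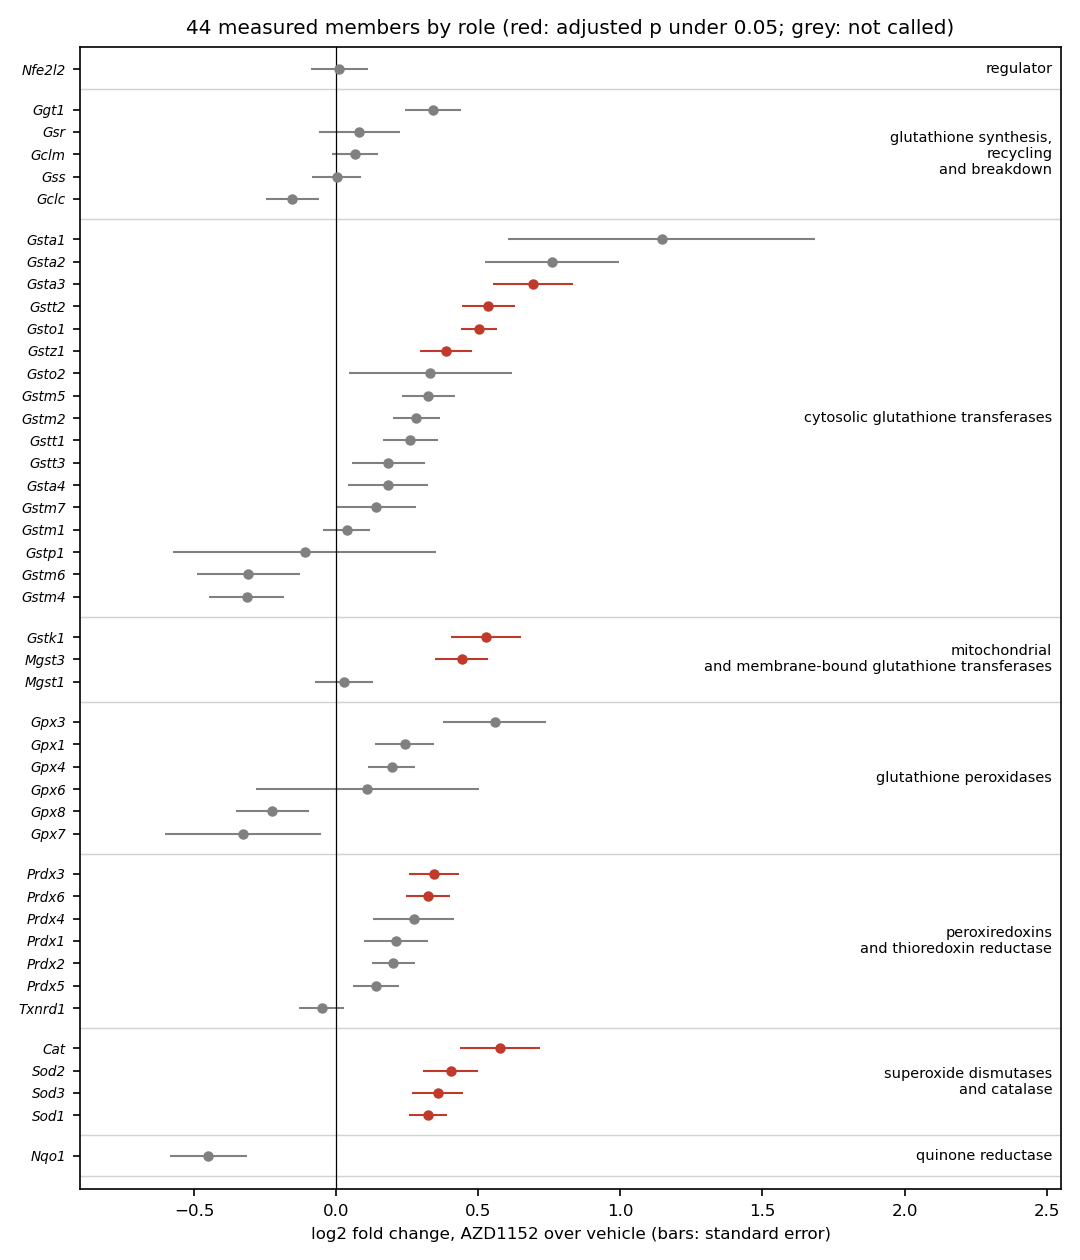
Log2 fold change of AZD1152 over vehicle for the 44 tested members, grouped by role; points are edgeR estimates, bars are standard errors, and red marks an adjusted p under 0.05. All 4 superoxide dismutase and catalase genes are red at 0.32 to 0.58, while 0 of the 5 genes of glutathione synthesis, recycling and breakdown are. Over all tested genes, 3.02% were called higher and 4.81% lower.

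Cell type markers moved between the same groups of kidneys. The background of each count here is 3.02% of all tested genes called higher and 4.81% called lower. Of 15 proximal tubule markers, 7 rose and 0 fell (median log2 fold change 0.53), and their summed level was 23699 to 28829 CPM in AZD1152 kidneys, against 15696 to 19361 CPM in vehicle kidneys. Of 13 tested markers of the distal tubule and collecting duct, 5 rose (median 0.44; sum 1871 to 2365 CPM in AZD1152 kidneys, against 1603 to 2123 CPM in vehicle kidneys). Of 8 markers of the last proximal tubule segment, S3, 0 were called in edgeR (median -0.44; sum 1524 to 2566 CPM in AZD1152 kidneys, against 2524 to 3081 CPM in vehicle kidneys). Macrophage markers fell in 10 of 14 cases (median -1.02; sum 549 to 850.1 CPM in AZD1152 kidneys, against 1211 to 1646 CPM in vehicle kidneys) and T cell markers in 7 of 12 (median -1.44; sum 49.5 to 78.1 CPM in AZD1152 kidneys, against 106 to 173 CPM in vehicle kidneys). No marker of these 5 lists had 0 counts in every library. The other lists had medians of -0.23 (loop of Henle, 1 of 8 fell), -0.74 (fibroblasts and pericytes, 2 of 9 fell), -0.76 (B and plasma cells), -0.32 (neutrophils), 0.011 (podocytes) and -0.025 (endothelium), with 0 called in edgeR in the last 4. In bulk tissue, more cells of a type and more RNA per cell cannot be told apart, and the part of these shifts in the antioxidant results was not tested. The adrenal markers summed to 3.75 to 5.68 CPM in AZD1152 kidneys, against 4.77 to 5.59 CPM in vehicle kidneys with Cyp11b2 at 0 counts, and fat markers to at most 0.425 CPM in any kidney, with Adipoq and Lep at 0.

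All 3 superoxide dismutases and catalase rose with AZD1152. Sod1 (ENSMUSG00000022982; GRCm38 chromosome 16, 90220754 to 90226329, plus strand), the copper and zinc enzyme of the cytosol, had 244, 253, 257 and 249 CPM in AZD1152 replicates 1 to 4 and 206, 202 and 194 CPM in vehicle replicates 1 to 3. The groups did not overlap, and the gap between them was wider than the spread within either. Its log2 fold change was 0.32 ± 0.067 (SE; edgeR adjusted p = 0.0263). Sod2 (ENSMUSG00000006818; GRCm38 chromosome 17, 13006846 to 13040063, plus strand), the manganese enzyme of the mitochondrial matrix, had 380.1, 378, 373 and 386 CPM with AZD1152, against 299.8, 316 and 244 CPM with vehicle. The treated kidneys were nearly alike, while vehicle replicate 3 was low; the log2 fold change was 0.40 ± 0.098 (edgeR adjusted p = 0.041). Sod3 (ENSMUSG00000072941; GRCm38 chromosome 5, 52363791 to 52371418, plus strand), the enzyme secreted to the extracellular matrix, had 527, 602, 525 and 591 CPM with AZD1152, against 443, 457 and 414 CPM with vehicle, apart by 0.36 ± 0.089 on the log2 scale (edgeR adjusted p = 0.0441). Cat (ENSMUSG00000027187; GRCm38 chromosome 2, 103453849 to 103485160, minus strand), which encodes the catalase of peroxisomes, had 1057, 1227, 940.1 and 984 CPM in AZD1152 kidneys, against 763, 784 and 570.2 CPM in vehicle kidneys. AZD1152 replicate 2 was the highest and vehicle replicate 3 the lowest, and the log2 fold change was 0.58 ± 0.14 (edgeR adjusted p = 0.0421). Red blood cells also hold much catalase and Sod1, and 0 of 6 tested erythroid markers were called in edgeR, while 5 of the 6 estimates were above 0 and their log2 median was 0.46 (summed level 386 to 1309 CPM in AZD1152 kidneys, against 344 to 644 CPM in vehicle kidneys); their part was not tested. With 1 kidney left out, the Sod3 call was lost in all 7 cases (edgeR adjusted p up to 0.137), those of Sod2 and Cat in all but the case without vehicle replicate 2 (up to 0.0978 and 0.113), and that of Sod1 without AZD1152 replicate 3 or 4 or any vehicle replicate (up to 0.0882).

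**Figure D3:**
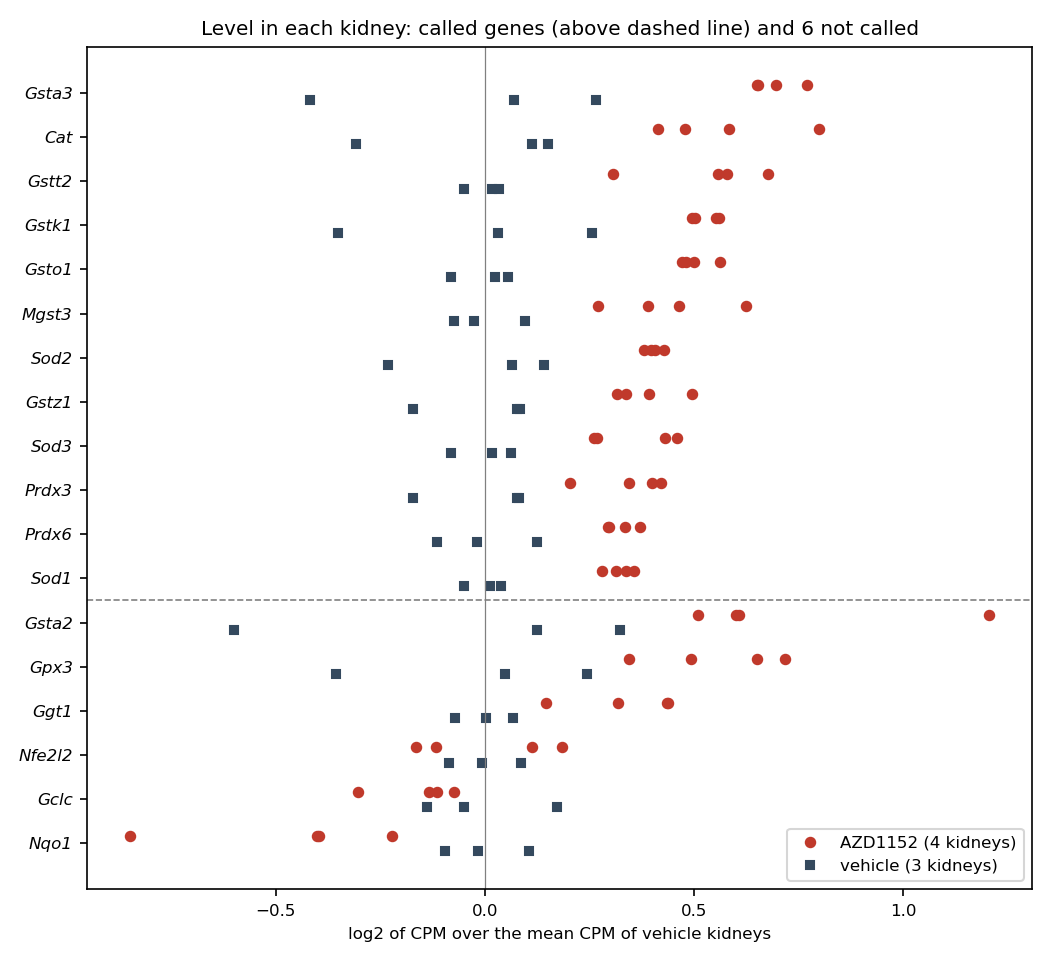
Each kidney's CPM over the mean CPM of the vehicle kidneys, on a log2 scale. Shown are the 12 called genes (above the dashed line) and 6 genes that did not pass the test in edgeR. Red circles are the 4 AZD1152 kidneys and dark squares the 3 vehicle kidneys. For every called gene all red circles lie to the right of all squares, and for Nqo1 they all lie to the left.

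Among the cytosolic glutathione transferases, 4 of 17 tested members rose and 0 fell, with a median log2 fold change of 0.28. The background was 3.02% of all tested genes called higher and 4.81% called lower. Gsto1 (ENSMUSG00000025068; GRCm38 chromosome 19, 47854970 to 47864790, plus strand), an omega-class enzyme that reduces dehydroascorbate and mixed disulfides, had 87.5, 88.0, 89.2 and 93.2 CPM in AZD1152 kidneys and 64.2, 65.5 and 59.7 CPM in vehicle kidneys. Both groups were tight and far apart. It had the smallest p of all members, with a log2 fold change of 0.50 ± 0.064 (SE; edgeR adjusted p = 0.00951). Gsta3 (ENSMUSG00000025934; GRCm38 chromosome 1, 21240589 to 21265661, plus strand), an alpha-class enzyme, had 108, 117, 108 and 112 CPM with AZD1152 and 82.8, 72.3 and 51.6 CPM with vehicle. This was the largest of the called changes, at 0.69 ± 0.14 (edgeR adjusted p = 0.0242), and the vehicle kidneys varied more than the treated ones. Gstt2 (ENSMUSG00000033318; GRCm38 chromosome 10, 75831114 to 75837424, minus strand), of the theta class, had 191, 207, 160.3 and 194 CPM with AZD1152 and 131, 125 and 133 CPM with vehicle, and it stood 0.54 ± 0.094 higher on the log2 scale (edgeR adjusted p = 0.0174). Gstz1 (ENSMUSG00000021033; GRCm38 chromosome 12, 87147165 to 87164723, plus strand), the maleylacetoacetate isomerase of tyrosine breakdown, had 305, 346, 309.8 and 322 CPM with AZD1152, against 259, 259.9 and 218 CPM with vehicle. No kidneys overlapped between the groups for either gene, and the Gstz1 difference was 0.39 ± 0.091 on the log2 scale (edgeR adjusted p = 0.0387). Gstz1 shares exonic positions with Pomt2 on the opposite strand, and the strand setting of the counting was not given in the sources used here.

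Gsta2, the most abundant alpha-class transferase here, had 270.4, 438, 288 and 289 CPM in AZD1152 kidneys and 238, 207 and 125 CPM in vehicle kidneys. AZD1152 replicate 2 stood far above the other treated kidneys, and the gene did not pass the test in edgeR (log2 fold change 0.76 ± 0.24, adjusted p = 0.0843). DESeq2 called Gsta2 higher (adjusted p = 0.0101), as did edgeR without a filter (adjusted p = 0.0263). Without AZD1152 replicate 2 its log2 fold change in edgeR was 0.56. Gsta1, a close relative on the same chromosome, averaged 0.903 ± 0.481 CPM with AZD1152 and 0.400 ± 0.160 CPM with vehicle. It was not called in edgeR (1.15 ± 0.54, adjusted p = 0.229) or in DESeq2 (adjusted p = 0.266). The mu class was mixed: Gstm1, its most abundant member, had 0.037 ± 0.082, Gstm5 0.32 ± 0.093 and Gstm2 0.28 ± 0.083, whereas Gstm4 had -0.31 ± 0.13 and Gstm6 -0.31 ± 0.18 on the log2 scale, with edgeR adjusted p = 0.825, 0.0675, 0.0714, 0.178 and 0.333. DESeq2 called Gstm5 and Gstm2 higher (adjusted p = 0.0362 and 0.032) and did not call Gstm1, Gstm4 or Gstm6. Gstp1 ranged widely, with 2.78, 9.42, 9.95 and 15.4 CPM in AZD1152 kidneys and 13.7, 6.33 and 10.2 CPM in vehicle kidneys. All vehicle kidneys lay inside the range of the treated ones, and its difference was within the spread (-0.11 ± 0.46). The other cytosolic members had 0.26 ± 0.096 (Gstt1), 0.18 ± 0.13 (Gstt3), 0.18 ± 0.14 (Gsta4), 0.14 ± 0.14 (Gstm7) and 0.33 ± 0.29 (Gsto2), and none of these 5 passed the test in edgeR (1 of them, Gstt1, had an unadjusted p under 0.05, and DESeq2 called 0). Because members of a class are alike in sequence and reads may have been split among them, the counts of each class were also summed before the fit. The theta and omega classes rose as sums (log2 fold changes 0.37 ± 0.083 and 0.50 ± 0.065; edgeR adjusted p = 0.0335 and 0.00951). The omega sum was nearly all Gsto1, with 1449 of 1473 counts in AZD1152 replicate 1 and 1103 of 1127 in vehicle replicate 1. It thus repeats the Gsto1 call, and Gsto2 alone had an edgeR adjusted p of 0.524. The alpha sum had 0.67 ± 0.20, the mu sum 0.11 ± 0.082 and the pi sum -0.15 ± 0.44 (edgeR adjusted p = 0.0748, 0.468 and 0.869).

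Of the transferases of organelles and membranes, Gstk1 and Mgst3 rose and Mgst1 did not pass the test. Gstk1 (ENSMUSG00000029864; GRCm38 chromosome 6, 42245935 to 42250447, plus strand), the kappa-class enzyme of mitochondria and peroxisomes, had 68.6, 71.8, 68.9 and 71.4 CPM in AZD1152 kidneys and 49.8, 58.2 and 38.2 CPM in vehicle kidneys. The 4 treated kidneys lay within a narrow band above a scattered vehicle group (0.53 ± 0.12, edgeR adjusted p = 0.0387). Mgst3 (ENSMUSG00000026688; GRCm38 chromosome 1, 167371966 to 167393841, minus strand), a membrane enzyme that reduces lipid hydroperoxides, had 116, 148, 126 and 133 CPM with AZD1152 and 94.5, 103 and 91.5 CPM with vehicle (0.44 ± 0.093, edgeR adjusted p = 0.0271). Mgst1, the microsomal transferase, averaged 139 ± 15.6 CPM with AZD1152 (SD, n = 4) and 137 ± 11.2 CPM with vehicle (SD, n = 3), a difference within the spread (0.027 ± 0.10, edgeR adjusted p = 0.899). Of the 6 transferases called, Gsto1 kept its call without any 1 of the 7 kidneys. Gsta3 lost it without AZD1152 replicate 4 (edgeR adjusted p = 0.06), Gstt2 and Mgst3 without AZD1152 replicate 4 or vehicle replicate 1 or 3 (up to 0.0583 and 0.107), Gstk1 in all cases but that without vehicle replicate 2 (up to 0.0947), and Gstz1 in all 7 (up to 0.11).

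None of the 6 tested glutathione peroxidases passed the test in edgeR, where 3 had an unadjusted p under 0.05, and DESeq2 called 1, Gpx3. The edgeR count is near its background, 3.02% of all tested genes called higher and 4.81% called lower. Gpx3 (ENSMUSG00000018339; GRCm38 chromosome 11, 54902453 to 54910377, plus strand) had 34859, 45144, 43118 and 38668 CPM in AZD1152 kidneys and 28404, 32555 and 21476 CPM in vehicle kidneys. Every treated kidney was above every vehicle kidney, but vehicle replicate 3 lay well below its group, and the log2 fold change was 0.56 ± 0.18 (edgeR adjusted p = 0.095; DESeq2 adjusted p = 0.00427). Gpx1 had 1200.1, 1303, 1416 and 1268 CPM with AZD1152, against 1139, 1176 and 977 CPM with vehicle (0.24 ± 0.10, edgeR adjusted p = 0.189). Gpx4, which reduces lipid hydroperoxides in membranes and protects cells from ferroptosis, had 368, 427, 399.6 and 412 CPM with AZD1152 and 367, 344 and 342 CPM with vehicle (0.19 ± 0.082, edgeR adjusted p = 0.178). These 3 selenoenzymes were higher in all treated kidneys, for Gpx4 only just, at 368 against 367 CPM. None passed the correction in edgeR. With total counts only, the log2 fold changes were 0.41 for Gpx3, 0.094 for Gpx1 and 0.044 for Gpx4. Gpx7 and Gpx8, peroxidases of the endoplasmic reticulum, had estimates below 0 (-0.33 ± 0.27 and -0.22 ± 0.13; edgeR adjusted p = 0.509 and 0.319). Gpx6 had 42.5, 10.7, 17.5 and 24.0 CPM with AZD1152 and 28.2, 19.7 and 18.1 CPM with vehicle, and the spread of the treated kidneys covered the whole vehicle range.

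Of the peroxiredoxins, Prdx3 and Prdx6 rose. Prdx3 (ENSMUSG00000024997; GRCm38 chromosome 19, 60864051 to 60874556, minus strand), the peroxiredoxin of the mitochondrial matrix, had 142, 165, 156 and 162 CPM with AZD1152 and 129.8, 130.3 and 109 CPM with vehicle. Its difference of 0.34 ± 0.089 on the log2 scale passed only narrowly (edgeR adjusted p = 0.05, under 0.05 before rounding). Prdx6 (ENSMUSG00000026701; GRCm38 chromosome 1, 161240112 to 161251219, minus strand), which has 1 active cysteine and is recharged by glutathione, had 202, 207, 196 and 196 CPM with AZD1152 and 174, 148 and 158 CPM with vehicle (0.32 ± 0.077, edgeR adjusted p = 0.0393). For both genes the groups were apart, by less than the range within a group for Prdx3 and, for Prdx6, with vehicle replicate 1 nearest to the treated kidneys. Prdx5, the most abundant peroxiredoxin per exon length, averaged 869 ± 31.7 CPM with AZD1152 and 788 ± 38.2 CPM with vehicle (0.14 ± 0.082, edgeR adjusted p = 0.334). Trmt112, on the opposite strand, overlaps its exons. Prdx1, Prdx2 and Prdx4 had 0.21 ± 0.11, 0.20 ± 0.076 and 0.27 ± 0.14 (edgeR adjusted p = 0.288, 0.141 and 0.283), and Txnrd1, the cytosolic thioredoxin reductase, -0.051 ± 0.08 (0.745 in edgeR). The Prdx6 call was lost without any 1 of the 7 kidneys and the Prdx3 call without any kidney other than AZD1152 replicate 1 (largest edgeR adjusted p 0.122 and 0.162).

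**Figure D4:**
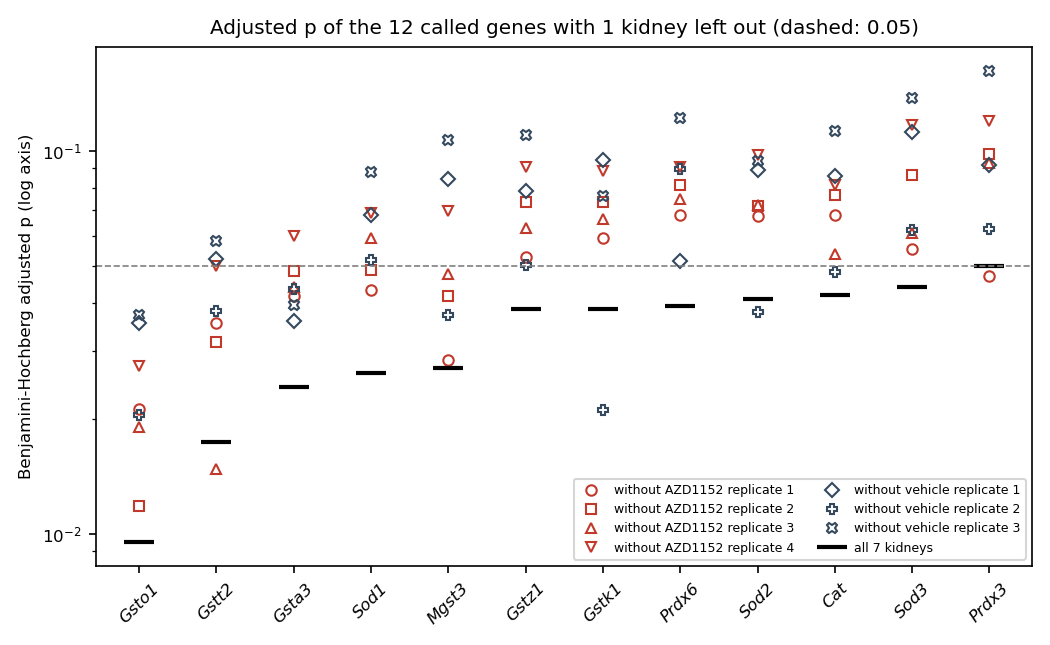
Benjamini-Hochberg adjusted p of the 12 called genes on a log axis with all 7 kidneys (black bars) and with 1 kidney left out (red without an AZD1152 kidney, dark without a vehicle kidney); the dashed line is 0.05. Gsto1 stays below the line in each case, at 0.0373 or less, and the other 11 cross it in at least 1.

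The genes that make and recycle glutathione did not pass the test in either direction. In edgeR 0 of 5 were called, with 1 at an unadjusted p under 0.05 and 1, Ggt1, called by DESeq2. For so few genes the edgeR count is near its background, 3.02% of all tested genes called higher and 4.81% called lower. Gclc had 146, 128, 144 and 150.2 CPM with AZD1152 and 144, 153 and 178 CPM with vehicle, and Gclm had 311, 260.2, 287 and 294 CPM with AZD1152 and 283, 274 and 268 CPM with vehicle. The groups overlapped for both genes, with log2 fold changes of -0.15 ± 0.094 and 0.067 ± 0.082 (edgeR adjusted p = 0.354 and 0.666). Gss averaged 127 ± 12.9 CPM with AZD1152 and 127 ± 0.845 CPM with vehicle, and Gsr 110.4 ± 18.4 CPM with AZD1152 and 104 ± 15.8 CPM with vehicle (log2 fold changes 0.002 ± 0.087 and 0.082 ± 0.14; edgeR adjusted p = 0.992 and 0.776). Gss shares exonic positions with Acss2 and Gclm with Gm17494, both on the opposite strand. Ggt1 had 807, 805, 659 and 743 CPM in AZD1152 kidneys and 596, 624 and 566 CPM in vehicle kidneys; the groups were apart, but the difference of 0.34 ± 0.098 did not pass (edgeR adjusted p = 0.069).

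Nfe2l2 itself did not pass the test, and Nqo1, the quinone reductase often read as a target of NRF2, was the member with the most negative estimate. Nfe2l2 (ENSMUSG00000015839; GRCm38 chromosome 2, 75675513 to 75704641, minus strand) had 123, 128, 149.5 and 157 CPM with AZD1152 and 147, 130.4 and 138 CPM with vehicle, with all vehicle kidneys inside the treated range (0.011 ± 0.10, edgeR adjusted p = 0.963). Nqo1 (ENSMUSG00000003849; GRCm38 chromosome 8, 107388225 to 107403206, minus strand) had 25.7, 39.7, 35.2 and 35.1 CPM in AZD1152 kidneys and 49.9, 43.3 and 45.8 CPM in vehicle kidneys. All 4 treated kidneys were below all 3 vehicle kidneys, with AZD1152 replicate 1 the lowest, but the log2 fold change of -0.45 ± 0.13 did not pass in edgeR (adjusted p = 0.0764), while DESeq2 gave an adjusted p of 0.0379. Nfe2l2 protein was not measured here.

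The core of the antioxidant response element, TGACNNNGC on either strand, was looked for in the promoters of the members, because NRF2 acts through this element and the members with it could be set beside those without. RefSeq start sites of GRCm38.p6, with 250 bases before and 50 after each, were at hand for 45 of the 52 members. The letters occurred in at least 1 promoter of 10 of the 45 (22.2%), beside 3781 of 27025 genes with a promoter, or 14%. They occurred in 2 of 9 members that rose, Gsta3 and Sod1, and in 8 of 29 tested members that did not pass, Gclm, Ggt1, Gstm5, Gstm7, Mgst1, Nfe2l2, Prdx1 and Txnrd1. A match is a description and not a shown site. Bases outside the windows were not searched, so a member without a match may hold the element elsewhere. Genes with several start sites had several windows, and so more room for a match. The 250 bases before the start site are printed for both genes that rose and hold the letters, for Gclm, which holds them and did not pass the test, and for Nqo1, in whose window they were not present; capitals mark the match.
Gsta3 (chr1:21240335-21240584, plus strand): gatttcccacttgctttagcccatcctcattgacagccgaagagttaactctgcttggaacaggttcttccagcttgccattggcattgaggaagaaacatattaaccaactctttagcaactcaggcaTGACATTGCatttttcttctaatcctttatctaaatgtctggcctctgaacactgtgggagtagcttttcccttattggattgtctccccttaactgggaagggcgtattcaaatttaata
Sod1 (chr16:90220512-90220761, plus strand): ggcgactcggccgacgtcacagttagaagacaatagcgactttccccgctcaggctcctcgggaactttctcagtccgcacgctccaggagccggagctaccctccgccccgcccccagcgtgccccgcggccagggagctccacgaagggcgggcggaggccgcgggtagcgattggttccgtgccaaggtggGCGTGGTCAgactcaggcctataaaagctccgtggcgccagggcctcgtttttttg
Gclm (chr3:122245307-122245556, plus strand): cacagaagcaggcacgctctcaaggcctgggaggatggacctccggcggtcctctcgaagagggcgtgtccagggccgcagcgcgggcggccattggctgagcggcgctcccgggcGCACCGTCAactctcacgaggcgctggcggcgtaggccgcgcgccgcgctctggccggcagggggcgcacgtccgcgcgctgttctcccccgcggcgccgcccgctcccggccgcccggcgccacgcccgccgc
Nqo1 (chr8:107403206-107403455, minus strand): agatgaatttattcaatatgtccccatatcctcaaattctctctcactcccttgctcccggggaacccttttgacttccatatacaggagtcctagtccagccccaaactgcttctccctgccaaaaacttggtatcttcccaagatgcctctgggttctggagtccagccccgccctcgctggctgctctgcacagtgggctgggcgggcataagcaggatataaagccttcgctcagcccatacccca
In these windows the match began at position -121 in Gsta3, -56 in Sod1 and -134 in Gclm, counted from the start site, and ran on the strand of the gene in Gsta3 and on the opposite strand in Sod1 and Gclm. The Sod1 and Gclm windows were rich in G and C, at 66.4% and 78.4%, against 42.0% in Gsta3 and 53.2% in Nqo1.

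Genes that work with these enzymes were read from lists of the same pathways, chosen for their roles. In a list of 28 genes of the NRF2 pathway and its other targets, 0 rose in edgeR, beside 3.02% of all tested genes, and 1 fell, beside 4.81%. Both counts are near their background, and the median log2 fold change was -0.056. The 1 that fell was G6pdx, which opens the pentose phosphate pathway and shares exonic positions with Ikbkg on the opposite strand, with 30.4, 32.8, 31.7 and 32.0 CPM with AZD1152 and 42.8, 43.6 and 38.2 CPM with vehicle (-0.39 ± 0.079, edgeR adjusted p = 0.0244). Pgd, the third enzyme of that pathway, had -0.26 ± 0.078, and Osgin1 and Ptgr1 had 0.47 ± 0.14 and 0.54 ± 0.17 (edgeR adjusted p = 0.0779, 0.0694 and 0.0844). DESeq2 called Osgin1 and Ptgr1 higher (adjusted p = 0.0224 and 0.0441), beside 6.14% of its genes, and did not call Pgd (adjusted p = 0.0741). The whole NRF2 list was not counted in DESeq2. In the list for glutathione supply, turnover and export, 0 of 23 were called in edgeR (median 0.21), beside the same background shares. Its smallest p belonged to Cbs, of cysteine synthesis (0.38 ± 0.13), the organic anion carrier Slc22a8 (0.55 ± 0.19; 0.33 without AZD1152 replicate 2), the peptidase Anpep (0.26 ± 0.092) and Ggt7 (-1.35 ± 0.52), with edgeR adjusted p = 0.103, 0.115, 0.116 and 0.145.

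Genes of NADPH supply give the reducing power for both glutathione and thioredoxin. Of 15, 3 rose, beside 3.02% of all tested genes, and 1 fell, beside 4.81%, so that the lower count is near its background (the 1 is G6pdx, which is in both lists; median 0.16). Nnt, the transhydrogenase of the inner mitochondrial membrane, averaged 402 ± 13.2 CPM with AZD1152 (SD, n = 4) and 290.2 ± 25.2 CPM with vehicle (SD, n = 3). It rose by a log2 value of 0.47 ± 0.085 (edgeR adjusted p = 0.0185), and GENCODE lists a second Nnt gene over the same exons. Idh2, the NADP-dependent isocitrate dehydrogenase of mitochondria, rose by 0.48 ± 0.088 and Mthfd1, of cytosolic folate metabolism, by 0.45 ± 0.099 (log2; edgeR adjusted p = 0.0189 and 0.0324). Among 22 thioredoxins, glutaredoxins and repair enzymes, 1 rose and 0 fell in edgeR (median 0.24), near the same background shares. Of the 22 estimates, 17 were above 0. The 1 that rose was Msrb1, a methionine sulfoxide reductase (0.32 ± 0.081, edgeR adjusted p = 0.0458). Msrb2, Ccs, the copper chaperone of Sod1, and Park7 had 0.58 ± 0.15, 0.31 ± 0.081 and 0.29 ± 0.089 (edgeR adjusted p = 0.0502, 0.0521 and 0.0779). DESeq2 called Msrb2, Ccs, Park7 and Msrb1 higher (adjusted p = 0.00856, 0.0223, 0.0278 and 0.0127), beside 6.14% of its genes. The whole list was not counted in DESeq2. Of 11 genes of selenium supply and selenoprotein synthesis, 2 rose, beside 3.02% of all tested genes, and 0 fell, beside 4.81% (median 0.14). Sephs2, which makes the selenium donor for selenocysteine, had 319, 229.8, 258 and 252 CPM with AZD1152 and 183, 176 and 179 CPM with vehicle (0.56 ± 0.11, edgeR adjusted p = 0.0233), and Selenbp1, which binds selenium, had 0.65 ± 0.13 (edgeR adjusted p = 0.0249). Sephs1 and Sepsecs had 0.17 ± 0.074 and 0.17 ± 0.077 (edgeR adjusted p = 0.208 and 0.209).

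On the producing side, oxidases of phagocytes fell while Nox4 rose. Of 14 tested genes that make superoxide or peroxide, 5 fell, beside 4.81% of all tested genes, and 1 rose, beside 3.02% (median -0.05). Cybb, the catalytic subunit of the phagocyte NADPH oxidase, had 40.4, 45.8, 57.1 and 50.5 CPM in AZD1152 kidneys and 124, 84.1 and 88.7 CPM in vehicle kidneys (-1.03 ± 0.15, edgeR adjusted p = 0.0115). Its partners Ncf1, Ncf4 and Rac2 fell too (-1.16 ± 0.12, -1.32 ± 0.22 and -1.11 ± 0.13; edgeR adjusted p = 0.00686, 0.0154 and 0.009), beside the fall of macrophage markers given above, whose part in this was not tested. Xdh, xanthine dehydrogenase, fell by 0.74 ± 0.16 on the log2 scale (edgeR adjusted p = 0.0311). Nox4, the NADPH oxidase of tubule cells, was named after its values were seen, as the 1 gene of this list that rose. It had 637, 1145, 689 and 664 CPM in AZD1152 kidneys and 431, 460.2 and 260.0 CPM in vehicle kidneys (1.03 ± 0.26, edgeR adjusted p = 0.0447), and AZD1152 replicate 2 was well above the rest. The calls of Cybb, Ncf1 and Rac2 held without any 1 of the 7 kidneys. Those of Nnt and Ncf4 were lost without vehicle replicate 1 or 3; those of Idh2, Sephs2 and Selenbp1 without AZD1152 replicate 4 or vehicle replicate 1 or 3; that of G6pdx without AZD1152 replicate 4 or vehicle replicate 1 or 2; and that of Xdh without AZD1152 replicate 4 or any vehicle replicate. The Mthfd1 call held only without vehicle replicate 2, the Nox4 call only without AZD1152 replicate 1, and the Msrb1 call in no case.

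**Figure D5:**
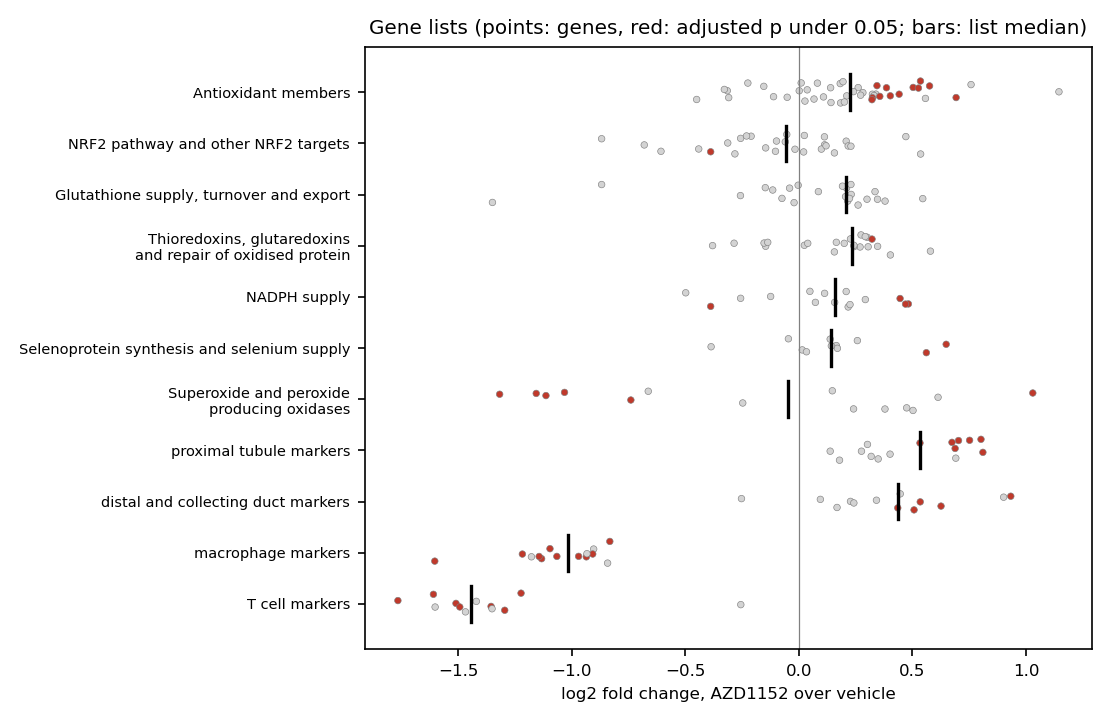
Log2 fold changes of AZD1152 over vehicle for the antioxidant members, 6 lists of partner genes and 4 lists of cell type markers; each point is a gene, red passes an adjusted p of 0.05 in edgeR, and black bars are list medians. The members' median is 0.23, beside -0.056 for other NRF2 genes, 0.53 for proximal tubule markers and -1.02 for macrophage markers.

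The number of rises depended on how libraries were scaled. With total counts in place of TMM, the median change over all genes moved to a log2 value of -0.15, 13.6% of all calls were higher in place of 38.5%, and 5 members rose (Cat, Gsta3, Gsto1, Gstt2 and Mgst3) and 2 fell (Nqo1 and Gstm4). The 12 called members had positive estimates in all 16 fits that were run, from 0.17 to 0.85. They were picked as higher in these same counts and their groups did not overlap, so this sign gives no separate support. Some members that were not called changed sign, as given below. Genes of the mitochondrial genome held 9.41% to 11.6% of counts in AZD1152 kidneys and 8.03% to 9.0% in vehicle kidneys, and TMM factors computed without them and the 50 most abundant genes left all 12 calls in place.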

How the data were processed

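Renal tissue of 7 MRL/lpr mice was measured by RNA sequencing, 4 with AZD1152 and 3 with vehicle, with groups and replicate numbers taken from the sample titles. The authors deposited raw counts per gene, whole numbers without normalization, and all 7 columns were used. The extract protocol in the labels gives enrichment with oligo(dT) beads and random priming. Per the submitters' processing notes, HISAT2 2.0.5 and build GRCm38 were used, and CASAVA, DESeq2 and DESeq were named. The sources used here name no counter, strand setting or gene annotation, and overlapping genes could not be told apart. Of 53465 genes, 53360 had a name in GENCODE mouse release M21.

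Low genes were removed by filterByExpr and TMM factors were computed. The model held group alone and was fitted in edgeR 4.0.16 under R 4.3.3 (two-sided quasi-likelihood test), with Benjamini-Hochberg adjustment over 15774 genes and a threshold of 0.05. Each SE was taken from the F statistic, whose root divides the estimate. Levels per length are TMM-scaled CPM per kb of union exon. The fit was tested on simulated data.

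The members, gene lists and tests were chosen with earlier results of these data known. Genes described in full were all called members, the 12 single genes, in each role the member with the smallest p and the highest level, and up to 4 genes of each partner list with the smallest p; further members are given to account for all. Alternatives were RLE, upper-quartile, total-count and reduced TMM scaling, no filter, a stricter filter (CPM of 1 or more in 3 or more kidneys, mean of 2 or more), DESeq2 1.42.0, class sums, leaving out each library, and the replicate number as a block. In all 21 pairs of libraries the deposited counts differed by more than sampling noise (chi-square over its degrees of freedom at least 10.8).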

Additional observations from a re-analysis of the deposited data

Results flagged for a closer look

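In 5 of 68 genes checked, 1 of the 4 AZD1152 kidneys stood apart from the other 3 by more than the 95% limit of Dixon's ratio for groups of 4, which chance exceeds in about 1 of 20 groups. In all 5 the kidney was AZD1152 replicate 2, the highest. Gsta2 had 438 CPM there and 270.4 to 289 CPM in the other treated kidneys, a ratio of 0.886. Msrb2 had 29.5 CPM there and 20.4 to 21.1 CPM in the other treated kidneys, a ratio of 0.926. Nox4 had 1145 CPM there and 637 to 689 CPM in the other treated kidneys, a ratio of 0.896. Sepsecs had 49.4 CPM there and 44.3 to 45.1 CPM in the other treated kidneys, a ratio of 0.843. Slc22a8 had 1143 CPM there and 689 to 736 CPM in the other treated kidneys, a ratio of 0.897. Without that kidney the log2 fold changes were 0.56 for Gsta2, 0.43 for Msrb2, 0.78 for Nox4, 0.12 for Sepsecs and 0.33 for Slc22a8, at edgeR adjusted p = 0.148, 0.0572, 0.0593, 0.386 and 0.119; with all 7 kidneys they were 0.76 ± 0.24, 0.58 ± 0.15, 1.03 ± 0.26, 0.17 ± 0.077 and 0.55 ± 0.19.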

How the results depend on the processing

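The count of members that rose was 11 to 13 with RLE or upper-quartile factors, TMM without mitochondrial and abundant genes, no filter or the stricter filter. It was 17 in DESeq2 and 5 with total counts only, and ranged from 1 (without AZD1152 replicate 4) to 9 (without vehicle replicate 2) when 1 kidney was left out. The count that fell was 1 in DESeq2 and without a filter and 2 with total counts only. Over all genes, 476 rose and 759 fell; total counts gave 233 and 1480, DESeq2 954 and 1138, and leaving out 1 kidney 60 to 475 and 163 to 619. The titles number both groups 1 to 3, but same-numbered kidneys correlated at -0.288, 0.209 and -0.119 in their deviations, and not every kidney matched best with its own number, so the numbers were not taken as pairs. In the fit with the replicate number as a block, AZD1152 replicate 4 has no partner and adds nothing to the group difference. There 63 genes rose and 146 fell, and 0 members were called in edgeR. At an unadjusted p under 0.05, 19 members were higher and 2 lower, again without a share over all genes beside them.

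Estimates near 0, and the widely spread ones of Gpx6 and Gstp1, changed sign in some settings. With total counts only they were -0.081 for Gclm, -0.027 for Gpx6, -0.066 for Gsr, -0.15 for Gss, -0.11 for Gstm1, -0.0049 for Gstm7, -0.12 for Mgst1, -0.14 for Nfe2l2 and -0.0091 for Prdx5. Upper-quartile factors gave -0.012 for Gss and -0.0040 for Nfe2l2, and the stricter filter -0.011 and -0.0024. Under the block they were -0.090 for Gpx6, -0.046 for Gss, -0.0061 for Gstm1 and -0.055 for Nfe2l2. Leaving out 1 kidney gave -0.34 to 0.34 for Gpx6, -0.028 to 0.19 for Gsr, -0.052 to 0.039 for Gss, -0.016 to 0.058 for Gstm1, -0.46 to 0.20 for Gstp1, -0.051 to 0.097 for Mgst1 and -0.062 to 0.063 for Nfe2l2. Without AZD1152 replicate 1, Gpx6 had -0.34 and Gstp1 0.20, and that kidney held the highest Gpx6 and the lowest Gstp1 level. Total counts leave out the TMM factors, which were 0.921 to 0.972 in AZD1152 kidneys and 1.04 to 1.11 in vehicle kidneys. There the median over all genes also moved, to -0.15. The cause of the other sign changes was not tested. The 8 members below the filter were too low to test, and the part of depth in this was not tested.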
